A study of Mus musculus with 6 samples.

Results

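The genes described here encode the proteins of the mitochondrial ribosome. They were taken from the deposited table of read counts as every row whose symbol starts with Mrpl or Mrps followed by a number, with names holding -ps left out. The rule found 77 genes among 24421 symbols. All 77 also passed the filter on low counts, which kept 13762 genes in all. The rule used names alone and no measured value.

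Whole mouse prostates were profiled by sequencing of polyadenylated RNA, in 3 knockout and 3 control libraries. All mice were C57BL/6 aged 52 weeks, and all carried floxed alleles of p62, the autophagy adaptor encoded by Sqstm1. In the knockout group (p62ffFSP1cre in the titles, p62FSP1KO as genotype) an FSP1 Cre was added, FSP1 being a product of S100a4 found in fibroblasts. The label places its deletion in the stroma. The control group, p62ff, is given as wild type and carries no Cre in its label. The FSP1 promoter is known to be active in fibroblasts and also in some leukocytes. The RNA came from the whole organ, so stromal and epithelial transcripts were counted together, and fewer cells of a type cannot be told apart from less RNA per cell. Whether the libraries came from different animals is not stated, so the p-values reflect only how far these samples spread, which may be technical.

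Mitochondrial ribosomes translate the few messenger RNAs of the mitochondrial genome, which encode core subunits of the respiratory chain and of ATP synthase. Every protein of this ribosome is encoded in the nucleus, made in the cytosol and imported. The small subunit reads the messenger RNA, and the large subunit joins the amino acids. Some of these proteins have bacterial relatives and others are found only in mitochondria. The secretory epithelium of the prostate is known for an altered mitochondrial metabolism in which citrate is released.

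Total counts were 14761703, 24186958 and 26910053 in knockout 1, 2 and 3, against 20011908, 16052785 and 12826463 in control 1, 2 and 3. Levels are given in CPM, the usual share of a library's counts after scaling by TMM factors, which adjust for differences in RNA makeup. Knockout 1 and control 3 stood apart from the other libraries. Over all tested genes knockout 2 and 3 had a Spearman correlation of 0.986, and knockout 1 had 0.958 and 0.953 with them. Control 3 had 0.942 and 0.938 with control 1 and 2. Between the groups, control 1 and 2 had 0.943 to 0.948 with knockout 2 and 3, and 0.914 and 0.915 with knockout 1. Control 3 had 0.840 to 0.873 with the knockouts. Sqstm1 was at 541, 387 and 462 CPM in knockout 1, 2 and 3, against 360, 409 and 295 CPM in control 1, 2 and 3 (adjusted p = 0.355, edgeR). The libraries labelled knockout did not have less of it, so this gene, read over the whole organ, did not check the labels. Each marker of luminal epithelium, smooth muscle, fibroblasts, endothelium and leukocytes was detected in at least 1 library. The 9 luminal markers summed to 87207.7, 78470.4 and 69113.3 CPM in knockout 1, 2 and 3, against 45480.0, 46479.8 and 3454.0 CPM in control 1, 2 and 3. Their median log2 fold change, knockout over control, was 0.14, with 6 of 9 positive and values from -0.72 to 2.08. The sum therefore does not speak for each marker. The 7 smooth muscle markers summed to 2758.4, 4085.2 and 3358.5 CPM in knockouts, against 1842.9, 2650.8 and 1141.9 CPM in controls. Summed over Sbp, Sbpl and Spink1, secretory genes of ventral type, the level was 91.7, 18.1 and 3.03 CPM in knockout 1, 2 and 3 against 65399.5, 49129.3 and 164610.2 CPM in control 1, 2 and 3. Summed over 5 adipocyte genes it was 4.35 to 40.2 CPM in knockouts, and 25.2, 24.1 and 972.3 CPM in control 1, 2 and 3. The part of these differences in the results below was not tested.

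Transcripts of mitochondrial ribosomal proteins had mostly positive differences in knockout prostates, and no single gene passed the test. Of the 77 genes 73 had a positive log2 fold change, knockout over control, against 52.4% of all genes tested. Their median log2 fold change was 0.45, against 0.03 over all genes tested. The values ran from -0.16 for Mrps25 to 1.38 for Mrps6. With edgeR's quasi-likelihood test and adjustment over all tested genes, 0 of 77 passed a false discovery rate of 0.05, where 5.07% of all genes did in either direction and 0.414% did as higher. The smallest adjusted p was 0.0725, for Mrps18a, and 4 members were higher at an adjusted p under 0.1, where 1.42% of all genes were. At an unadjusted p under 0.05 there were 24 members, all higher, where 8.62% of all genes were higher and 22.1% passed in either direction. The same number, 24, had all 3 knockout values above all 3 control values, a pattern found in 14.1% of all genes (32.4% in either direction), and 0 had all 3 below. DESeq2 called 10 members, all higher, where it called 3.31% of all genes as higher. Limma-voom called 0, where it called 4.85% of all genes in either direction and 0.436% as higher.

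The difference was not shared evenly by the knockout libraries. Summed over the 77 genes, the level was 3801, 2364 and 2177 CPM in knockout 1, 2 and 3, against 2033, 1928 and 1822 CPM in control 1, 2 and 3. Knockout 1 was the highest of the 6 libraries for 67 of 77 genes, and the share of all genes highest in it was not counted. Relative to the mean of the 6 libraries, the median gene stood at 0.63, 0.05 and -0.06 on the log2 scale in knockout 1, 2 and 3. In controls the median gene stood at -0.16, -0.22 and -0.24. Over all tested genes these medians ran from -0.01 to 0.02, as scaling by TMM sets the bulk of genes near level in each library. The median coefficient of variation of the members was 29.2% among knockouts and 12.0% among controls, against 22.5% and 18.3% over all tested genes with counts in both groups.

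**Figure D1:**
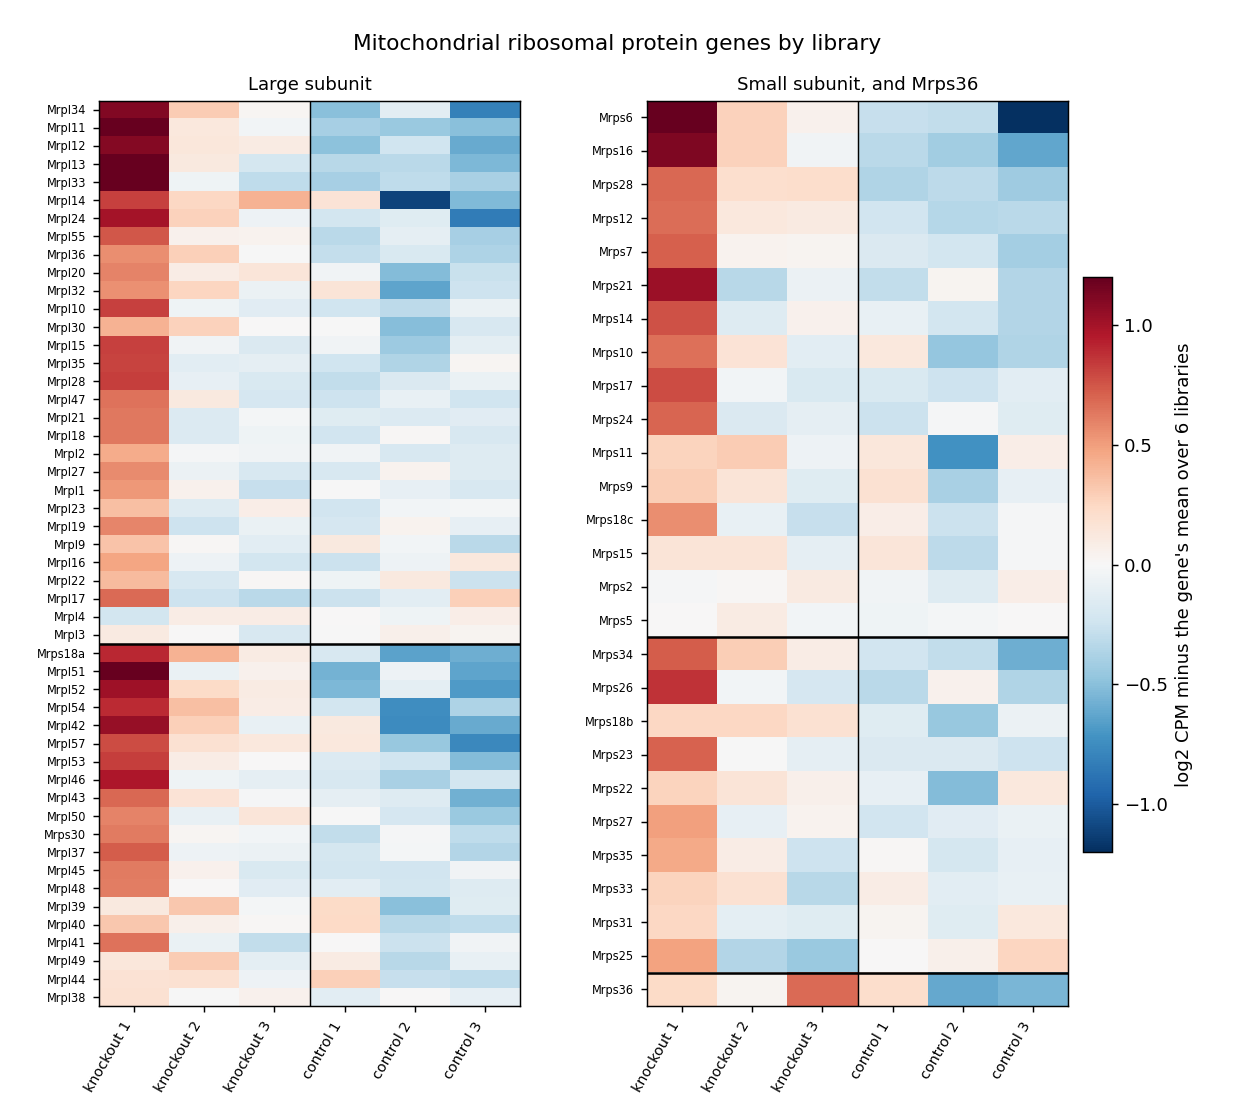
Heat maps of the 77 genes in 6 libraries, knockouts left of controls, coloured by log2 CPM minus the gene's own mean over the 6 libraries. Within each block genes run from the highest to the lowest log2 fold change, and black lines part genes with bacterial relatives (top) from mitochondria-specific ones, and Mrps36 from the rest. The first column, knockout 1, is the highest for 67 genes.

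Without knockout 1 the median log2 fold change of the members was 0.15, against 0.02 over all genes in that fit. Positive values then numbered 63 of 77, against 51.7% of all genes. At an unadjusted p under 0.05 there were 11 higher members, where 6.51% of all genes were higher, and 1 lower member. None of the 77 passed after adjustment, where 3.20% of all genes did, and the smallest adjusted p was 0.104. In 25 of 77 genes both knockout 2 and knockout 3 lay above every control, and in 21 neither exceeded the control range. The shares of all genes with these patterns were not counted, so these counts describe the members alone. The narrower pattern, with all 3 knockouts above every control, was found in 14.1% of all genes.

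**Figure D2:**
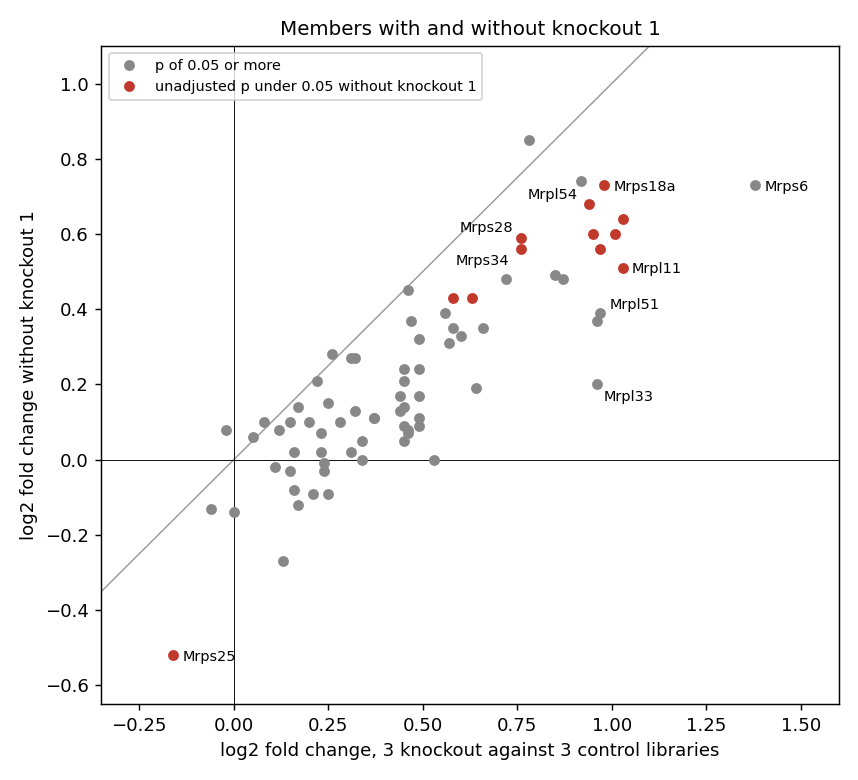
Each point is a gene, with its log2 fold change from all 6 libraries (x axis) and from the 5 libraries without knockout 1 (y axis); the grey line marks equal values, and red points had an unadjusted p under 0.05 without knockout 1. Most points lie below the line, Mrpl33 lies at 0.20, and Mrps18a stays at 0.73.

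The members with the smallest p had higher values in all 3 knockout libraries than in any control. Mrps18a is named for the small subunit but sits in the large subunit, and its gene spans chr17:46110986-46128910 on GRCm38. It was at 67.2, 47.6 and 38.0 CPM in knockout 1, 2 and 3, against 31.1, 22.5 and 23.6 CPM in control 1, 2 and 3. The lowest knockout lay above the highest control. Its log2 fold change was 0.98 ± 0.25 (SE), and 0.73 without knockout 1. Its adjusted p was 0.0725 in edgeR and 0.00915 in DESeq2, with a range of 0.00915 to 0.280 over all alternatives.

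Mrps28, a small subunit protein related to bacterial S1, was at 38.2, 27.1 and 27.3 CPM in knockout 1, 2 and 3, against 18.2, 18.8 and 17.4 CPM in control 1, 2 and 3. The controls averaged 18.1 ± 0.741 CPM (SD, n = 3), and all knockouts lay above them. Its log2 fold change was 0.76 ± 0.20 (adjusted p = 0.0811, edgeR). Mrps28 had the smallest unadjusted p of all members without knockout 1, with a log2 fold change of 0.59 in that fit. Mrps34, a mitochondria-specific protein of the small subunit, was at 86.0, 63.5 and 55.2 CPM in knockouts, against 44.2, 42.2 and 34.2 CPM in controls (adjusted p = 0.0923, edgeR). Mrpl54, a mitochondria-specific protein of the large subunit, was at 50.3, 34.7 and 28.5 CPM in knockouts, against 22.9, 15.8 and 20.6 CPM in controls (adjusted p = 0.0930, edgeR). For both, the groups did not overlap, and the log2 fold changes without knockout 1 were 0.56 and 0.68.

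Mrpl12 is related to the bacterial stalk protein L7/L12 and is also known to bind the mitochondrial RNA polymerase. It was at 100.8, 51.2 and 49.9 CPM in knockout 1, 2 and 3, against 33.1, 39.5 and 30.5 CPM in control 1, 2 and 3. All knockouts lay above all controls, and the log2 fold change was 0.97 ± 0.30 (adjusted p = 0.122, edgeR). Mrps12, the relative of the bacterial decoding-site protein S12, was at 51.6, 35.4 and 34.9 CPM in knockouts, against 27.5, 25.3 and 25.7 CPM in controls (adjusted p = 0.131, edgeR). Mrpl52, mitochondria-specific, was at 82.3, 47.6 and 43.4 CPM in knockouts, against 27.7, 37.2 and 25.0 CPM in controls (adjusted p = 0.118, edgeR). Mrps16, the relative of bacterial S16, was at 43.1, 23.9 and 19.1 CPM in knockouts, against 15.6, 14.6 and 12.6 CPM in controls (adjusted p = 0.128, edgeR). None of these passed in edgeR, and Mrpl12, Mrpl52 and Mrps16 were among the 10 called by DESeq2.

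The other members with high log2 fold changes were also highest in knockout 1, some with and some without overlap between the groups. Mrps6, the relative of bacterial S6, had the highest log2 fold change of all, 1.38 ± 0.47 (adjusted p = 0.150, edgeR). It was at 198, 79.2 and 67.5 CPM in knockout 1, 2 and 3, against 53.9, 53.1 and 25.4 CPM in control 1, 2 and 3. On GRCm38 the gene spans chr16:92058270-92112227, and its exons overlap those of Slc5a3, an inositol transporter gene on the same strand, so how reads were split among the pair is uncertain. Slc5a3 was at 171, 73.0 and 81.1 CPM in knockouts, against 52.2, 90.0 and 38.1 CPM in controls (adjusted p = 0.278, edgeR). Without knockout 1 the log2 fold change of Mrps6 was 0.73.

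Mrpl33, a small protein of the large subunit, was at 101, 35.7 and 29.7 CPM in knockout 1, 2 and 3, against 27.9, 29.7 and 28.1 CPM in controls. Knockout 1 held 3.11 times the mean of the other knockouts, the highest such ratio among the members, and knockout 3 lay within the control range. Mrpl51, mitochondria-specific, was at 100.5, 38.3 and 42.0 CPM in knockout 1, 2 and 3, against 27.2, 38.9 and 26.0 CPM in controls, and knockout 2 lay below control 2. Mrpl13 was at 77.2, 33.9 and 27.0 CPM in knockouts, against 24.6, 24.8 and 21.4 CPM in controls. Mrpl11, which belongs to the factor-binding stalk base, was at 82.0, 37.3 and 33.4 CPM in knockouts, against 25.8, 24.9 and 24.1 CPM in controls. Mrpl34 was at 44.4, 25.2 and 20.7 CPM in knockouts, against 14.2, 18.6 and 11.3 CPM in controls. The adjusted p (edgeR) was 0.254 for Mrpl33, 0.201 for Mrpl51, 0.196 for Mrpl13, 0.142 for Mrpl11 and 0.136 for Mrpl34. The groups did not overlap for Mrpl11, Mrpl13 and Mrpl34, with log2 fold changes of 0.51, 0.37 and 0.64 without knockout 1. The exons of Mrpl13 overlap those of Mtbp on the opposite strand, and the strand setting of the counts is not given in the sources used here.

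The members with the lowest log2 fold changes had overlapping groups. Mrps2 was at 18.9, 19.3 and 20.5 CPM in knockouts, against 18.5, 17.0 and 20.2 CPM in controls. Mrps5 was at 20.0, 21.3 and 19.5 CPM in knockouts, against 19.1, 19.6 and 20.0 CPM in controls. Their log2 fold changes were 0.08 ± 0.18 and 0.05 ± 0.17 (-0.06 and -0.08 with library size alone as the scaling), and the groups overlapped. Mrpl4 was at 18.0, 22.5 and 22.5 CPM in knockouts, against 21.2, 20.4 and 22.3 CPM in controls, so knockout 1 was the lowest library for this gene. Mrps33 was at 5.03, 4.73 and 3.14 CPM in knockouts, against 4.39, 3.70 and 3.83 CPM in controls. Mrps15 was at 23.3, 23.3 and 19.3 CPM in knockouts, against 23.2, 16.7 and 20.7 CPM in controls. For both genes knockout 3 lay below a control. Mrpl3, the relative of bacterial L3, was at 25.4, 23.6 and 20.5 CPM in knockouts, against 23.6, 24.6 and 24.2 CPM in controls. Mrps31, Mrps33 and Mrps15 had log2 fold changes of 0.00, 0.11 and 0.12, with the last 2 at -0.02 under library size alone. Less than the mean of the other knockouts was found in knockout 1 for 5 of 77 genes, and more than 1.5 times that mean for 45. On the log2 scale this difference had a median of 0.65 for the members, against -0.02 for 13079 other protein-coding genes tested.

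Mrps25, a mitochondria-specific small subunit protein, had the lowest log2 fold change, -0.16 ± 0.28. It was at 32.7, 18.0 and 16.9 CPM in knockout 1, 2 and 3, against 23.2, 24.2 and 27.9 CPM in control 1, 2 and 3. Knockout 1 lay above all controls and the other knockouts below them. Its log2 fold change was 0.01 without knockout 3. Without knockout 1 its log2 fold change was -0.52 ± 0.17, with an adjusted p of 0.167 in edgeR (0.155 to 0.987 over all alternatives). Its exons overlap those of Nr2c2 on the opposite strand.

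**Figure D3:**
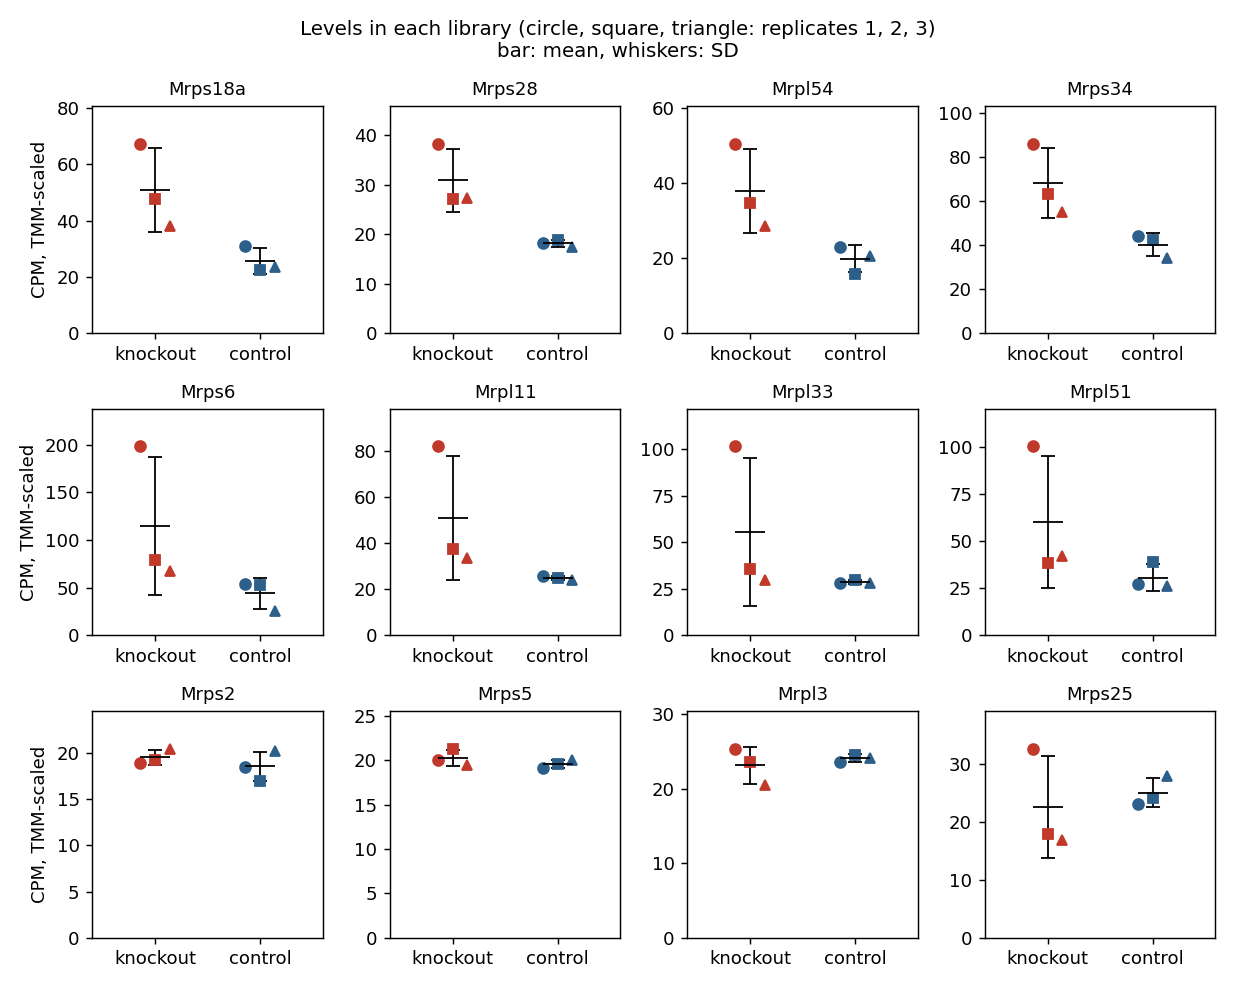
CPM of 12 members in each library, knockouts left of controls, with the mean (bar) and SD (whiskers) of 3 libraries; circle, square and triangle are replicates 1, 2 and 3. The top row shows members with all knockouts above all controls, the middle row members with a knockout 1 value (circle) over 2 times the mean of the other knockouts, and the bottom row members with overlapping groups.

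The subunits and classes of the ribosome had median log2 fold changes from 0.32 to 0.47. The 50 large subunit genes had a median log2 fold change of 0.45, with 48 positive, 18 at an unadjusted p under 0.05, 0 past the threshold in edgeR and 6 in DESeq2. The 26 small subunit genes had a median of 0.39, with 24 positive, 6 at an unadjusted p under 0.05, 0 past the threshold in edgeR and 4 in DESeq2. Of all genes tested 52.4% were positive, and 8.62% were higher at an unadjusted p under 0.05. After adjustment 0.414% of all genes were called as higher in edgeR and 3.31% in DESeq2. Summed large subunit levels were 2615, 1642 and 1501 CPM in knockout 1, 2 and 3, against 1406, 1327 and 1258 CPM in controls. Summed small subunit levels were 1184, 720.1 and 673.1 CPM in knockouts, against 625.1, 600.1 and 563.6 CPM in controls. Proteins with bacterial relatives had medians of 0.45 over 30 large subunit genes and 0.47 over 16 small subunit genes. The mitochondria-specific proteins had medians of 0.45 over 20 large subunit genes and 0.32 over 10 small subunit genes. Of those 10 small subunit genes 8 were positive and 1 was higher at an unadjusted p under 0.05. Of the 16 small subunit genes with bacterial relatives 16 were positive and 5 were higher at that p. The difference between subunits or classes was not tested. Mrps36 carries the family name but is known as a subunit of the alpha-ketoglutarate dehydrogenase complex, and it was the lowest member per length. It was at 1.88, 1.58 and 2.76 CPM in knockouts, against 1.85, 0.830 and 0.888 CPM in controls, with 13 to 72 counts a library (adjusted p = 0.347, edgeR).

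Levels per length spread widely among proteins that stand together in the ribosome. Divided by the length of the annotated transcript in kilobases, the mean over the 6 libraries had a median of 17.7 CPM per kb over the 77 genes, and 34 lay within 2 times of it. The highest were Mrpl52 at 105 CPM per kb, Mrps6 at 94.1 and Mrpl33 at 88.0. Mrpl35 and Mrpl47 were at 3.51 and 2.89 CPM per kb, just above Mrps36 at 2.33. Several annotated transcripts are long for these small proteins, such as 3364 bases for Mrpl47, and a shorter form in the tissue would raise its value per length. Exons of 13 members overlap those of another gene, 11 of them on the opposite strand.

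The members have short coding sequences, and the difference between knockout 1 and the other knockouts ran with coding length across coding genes. The coding sequence of the members ran from 195 to 1326 bases with a median of 576, against a median of 1398 for 13079 other protein-coding genes tested. Across the members the log2 fold change had a Spearman correlation of -0.526 with coding length, and across the other coding genes of -0.233. With the length of the annotated transcript it was -0.336 and -0.224. Knockout 1 minus the mean of knockout 2 and 3 gave -0.371 and -0.414 with coding length. The mean of knockout 2 and 3 minus the control mean gave -0.345 across the members and -0.0863 across the other coding genes. These are correlations across genes, which share the same 6 libraries and are not independent replicates. Set against the mean of knockout 2 and 3, knockout 1 had a median difference of 0.57 on the log2 scale for other genes with coding sequences under 400 bases, and of -0.40 for those of 3000 and over. For members under 400 bases it was 0.83, and for those of 1000 to 1499 bases 0.29, where other genes had 0.03. The mean of knockout 2 and 3 minus the control mean had a median of 0.38 for members under 400 bases, against 0.15 for other genes. At 1000 to 1499 bases these medians were 0.11 and 0.02.

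At like coding length the members had higher medians than other coding genes. The median log2 fold change was 0.69 for 14 members under 400 bases, against 0.40 for 637 other genes. It was 0.46 for 26 members of 400 to 599 bases, against 0.30 for 963 other genes, and 0.45 for 17 members of 600 to 799 bases, against 0.15 for 1232. Longer members numbered 9 and 11 in the next classes, with medians of 0.23 and 0.24, against 0.10 and 0.05 for other genes. These classes hold few members, and the part of length in the result was not tested.

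**Figure D4:**
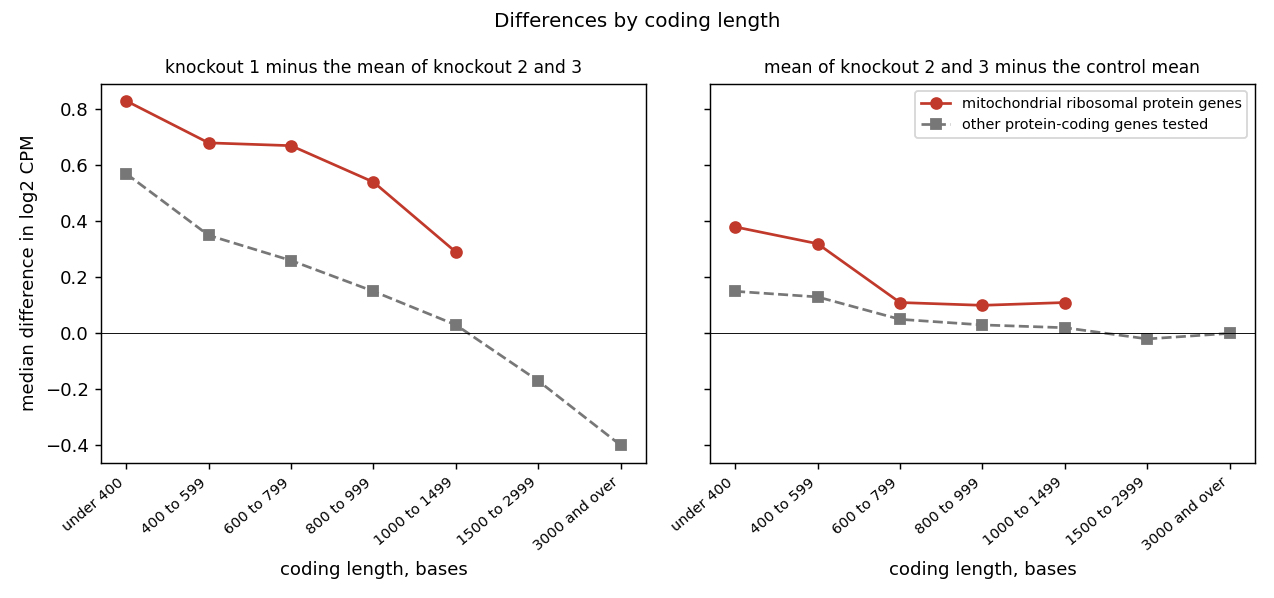
Median difference in log2 CPM by coding length (classes in bases) for the members (circles) and other protein-coding genes (squares). The left panel sets knockout 1 against the mean of knockout 2 and 3. There the median of other genes is 0.57 under 400 bases and -0.40 at 3000 and over. The right panel sets the mean of knockout 2 and 3 against the control mean. There the median under 400 bases is 0.38 for members and 0.15 for other genes.

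Promoters of 68 members were found in the RefSeq table on GRCm38.p6, in windows from 250 bases before to 50 after the start. The letters CCGGAAG, the core bound by ETS factors such as GABPA, a known regulator of mitochondrial genes, were searched on both strands. They were in a window of 25 of these 68 genes (36.8%), against 18.9% of 10439 tested genes with a window and 9.93% of all 27025 genes with a window. An exact motif of the factor YY1 was in 5 members (7.35%), against 2.23% of the tested genes and 0.995% of all genes with a window. An exact motif of NRF1 was in 3 members (4.41%), against 2.24% of the tested genes and 1.07% of all genes with a window. TGATGNAAT, a form of the element bound by ATF4 with C/EBP partners, was in 0 of 68 members, against 0.565% of the tested genes and 1.08% of all genes with a window. The last motif searched, TGACGTCA, was in 2 members (2.94%), against 3.49% of the tested genes and 2.03% of all genes with a window. A match is a description of letters only.

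The median log2 fold change was 0.46 for the 25 members with CCGGAAG and 0.45 for the 43 without, a difference that was not tested. Stretches from 150 bases before to 30 after the start are shown for Mrps18a, Mrpl34 and Mrpl52, all with non-overlapping groups, and for Mrpl3, which had a log2 fold change of -0.06 and has the same letters. Capitals mark CCGGAAG on either strand and, in Mrps18a only, the YY1 motif. All 4 are on the plus strand of GRCm38.p6, at chr17:46110854-46111033 for Mrps18a, chr8:71464776-71464955 for Mrpl34, chr14:54426759-54426938 for Mrpl52 and chr9:105053118-105053297 for Mrpl3.
Mrps18a: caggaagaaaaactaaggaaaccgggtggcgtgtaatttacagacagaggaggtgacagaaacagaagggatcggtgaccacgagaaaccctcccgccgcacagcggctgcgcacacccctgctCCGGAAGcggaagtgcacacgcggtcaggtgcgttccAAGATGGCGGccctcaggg
Mrpl34: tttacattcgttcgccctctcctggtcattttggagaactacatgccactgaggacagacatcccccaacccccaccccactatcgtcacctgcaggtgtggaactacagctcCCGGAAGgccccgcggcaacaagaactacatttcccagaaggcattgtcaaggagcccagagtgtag
Mrpl52: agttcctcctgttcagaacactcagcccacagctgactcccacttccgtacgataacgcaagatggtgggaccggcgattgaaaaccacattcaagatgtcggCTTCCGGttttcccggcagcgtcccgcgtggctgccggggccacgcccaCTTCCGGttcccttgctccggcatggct
Mrpl3: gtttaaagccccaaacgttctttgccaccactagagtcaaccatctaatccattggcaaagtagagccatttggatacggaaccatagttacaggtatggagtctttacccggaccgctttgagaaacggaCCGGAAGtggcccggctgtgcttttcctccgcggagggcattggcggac

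Of the members 19 start within 500 bases of a gene that runs the other way and was also tested. Those neighbours had a median log2 fold change of 0.11 with 11 of 19 positive, against 0.47 for the 19 members beside them, and 0 neighbours passed the threshold. Mrps12 at 0.63 shares its start region with Sars2, the mitochondrial seryl-tRNA synthetase, at 0.40. Mrpl51 at 0.97 lies beside Ncapd2, a condensin subunit, at -0.01. Mrps34 at 0.76 lies beside Eme2, a nuclease subunit, at -0.33. In other pairs the neighbour had the higher value, as with Mrpl49 at 0.22 beside Fau, a cytosolic ribosomal protein gene, at 1.1 (adjusted p = 0.0842, edgeR), Mrpl32 at 0.49 beside Psma2 at 0.60, and Mrpl36 at 0.58 beside Ndufs6 at 0.64. These pairs were named after their values were seen.

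In edgeR 0 genes passed in any of the lists of genes that act with the mitochondrial ribosome. DESeq2, which called 11.8% of all genes in either direction, called 4 genes in these lists: Phb2 and Hspe1 as higher, and Mars2 and Ppargc1a as lower. Among 6 ribosome subunits with other symbols 0 passed in edgeR or DESeq2, 4 were positive and the median log2 fold change was 0.51. Ict1, a release factor built into the large subunit, was at 55.5, 33.0 and 32.2 CPM in knockouts, against 29.9, 21.1 and 23.6 CPM in controls (adjusted p = 0.187, edgeR). Chchd1 had a log2 fold change of 0.88 and Gadd45gip1 of 0.56 (adjusted p = 0.203 and 0.263, edgeR). Among 17 mitochondrial translation factors 0 passed in either tool, 14 were positive and the median was 0.23. Oxa1l, which inserts new proteins into the inner membrane, had a log2 fold change of 0.43, Pdf (peptide deformylase) of 0.60 and Mtrf1l (a release factor) of 0.38.

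Of 27 genes for assembly of the mitochondrial ribosome 0 passed in either tool, 18 were positive and the median was 0.12. Mpv17l2, Tfb1m (an rRNA methyltransferase) and Mrm1 were at 0.61, 0.55 and 0.51 on the log2 fold change scale (adjusted p from 0.232 to 0.315, edgeR). Of 20 genes for mitochondrial transcription and RNA processing 0 passed in either tool, 10 were positive and the median was 0.04. Elac2, which trims the 3′ ends of tRNAs, had a log2 fold change of -0.54. Tfb2m, a transcription factor of the mitochondrial genome, had -0.58, and Polg, its DNA polymerase, had -0.42. All knockout values of Elac2 and Tfb2m lay below all control values, a pattern found in 18.3% of all genes.

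Of 20 mitochondrial tRNA synthetase and amidotransferase genes 0 passed in edgeR and 1 in DESeq2, 12 were positive and the median was 0.11. Mars2, the methionyl enzyme, was at 2.48, 2.94 and 4.10 CPM in knockouts, against 5.81, 6.45 and 7.24 CPM in controls (adjusted p = 0.108 in edgeR and 0.0268 in DESeq2, and 0.0268 to 0.363 over all alternatives). Ears2, the glutamyl enzyme, was at 42.1, 36.4 and 39.8 CPM in knockouts, against 26.2, 31.2 and 26.0 CPM in controls (adjusted p = 0.135, edgeR). Wars2, the tryptophanyl enzyme, had a log2 fold change of 0.65. The groups did not overlap in Mars2, Ears2 or Wars2. Of the 20 genes 2 had all knockout values above all control values and 2 had all below. Those patterns were found in 14.1% and 18.3% of all genes.

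Of 18 markers of mitochondrial mass and import 0 passed in edgeR and 2 in DESeq2, 16 were positive and the median was 0.38. Hspe1, the chaperonin cofactor, was at 150, 52.8 and 49.5 CPM in knockout 1, 2 and 3, against 41.1, 38.6 and 28.8 CPM in controls (adjusted p = 0.167 in edgeR and 0.0483 in DESeq2, and 0.0483 to 0.330 over all alternatives). Phb2 (a prohibitin) and Tomm40 (the outer membrane import pore) had log2 fold changes of 0.61 and 0.47. The adjusted p of Phb2 was 0.136 in edgeR and 0.0454 in DESeq2 (0.0454 to 0.536 over all alternatives). Of 10 regulators of mitochondrial biogenesis 0 passed in edgeR and 1 in DESeq2, and the median was 0.18. Ppargc1a, the coactivator PGC-1alpha, was at 4.96, 5.68 and 3.22 CPM in knockouts, against 9.86, 6.96 and 10.5 CPM in controls (log2 fold change -0.98, adjusted p = 0.132 in edgeR and 0.0443 in DESeq2, and 0.0443 to 0.756 over all alternatives, with a positive value of 0.84 under the covariate). Gabpa had a log2 fold change of 0.37 and Gabpb2 of -0.31. Mitochondrially encoded transcripts, the templates of this ribosome, were not analysed here.

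Other ribosomal and respiratory genes also stood highest in knockout 1. Of 79 cytosolic ribosomal protein genes tested 75 were positive, with 0 calls in edgeR, 19 in DESeq2 and 1 in limma-voom, all higher, and with a median log2 fold change of 0.71. On the log2 scale their median gene lay 0.83, 0.23 and -0.13 from its mean in knockout 1, 2 and 3, against -0.19, -0.44 and -0.39 in control 1, 2 and 3. Of 75 nuclear-encoded subunits of the respiratory complexes 70 were positive, 0 passed in edgeR and 6 in DESeq2, all higher, with a median of 0.55. That median gene lay at 0.82, -0.04 and -0.09 in knockout 1, 2 and 3, against -0.16, -0.21 and -0.26 in control 1, 2 and 3. Over all genes tested 52.4% were positive. As higher, edgeR called 0.414% of all genes, DESeq2 3.31% and limma-voom 0.436%. Differences between the members and these 2 lists were not tested.

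**Figure D5:**
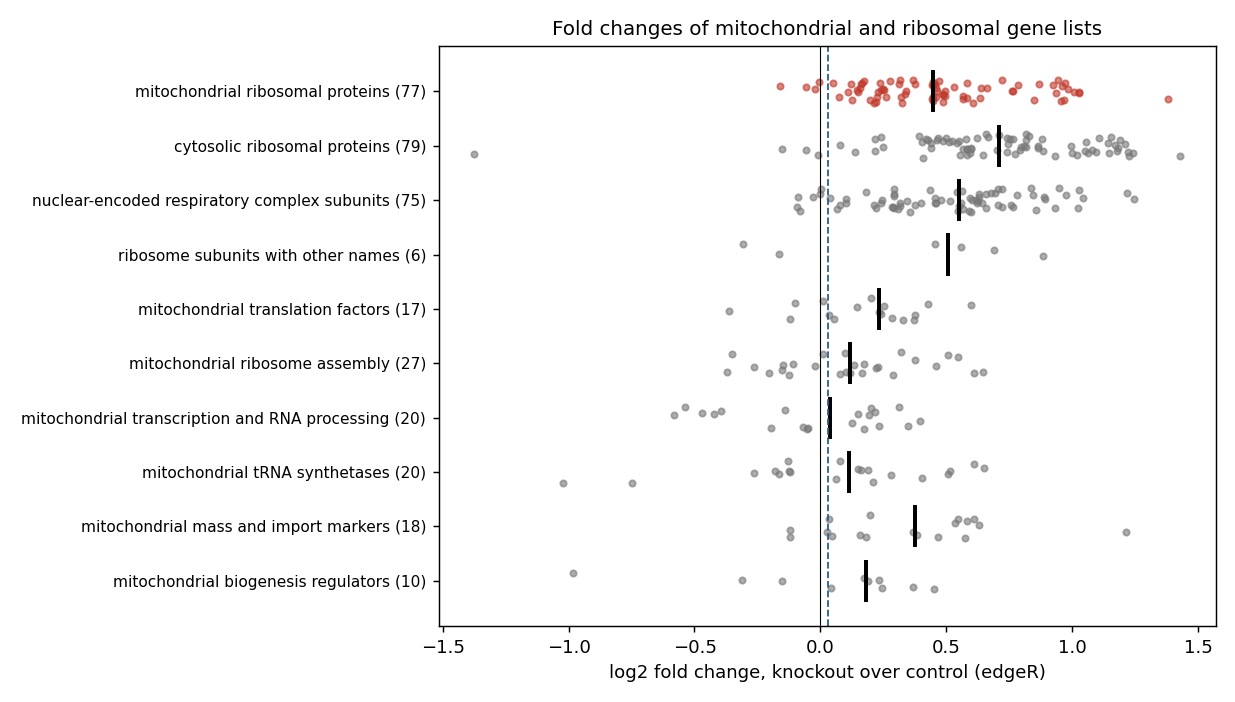
Log2 fold changes of single genes, knockout over control, by list, with the number of genes tested in brackets, the list median as a black bar and the median of all tested genes as a dashed line at 0.03. The members have a median of 0.45, against 0.71 for cytosolic ribosomal proteins and 0.55 for respiratory complex subunits. Ribosome subunits with other names have 0.51, mass and import markers 0.38 and assembly genes 0.12.

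The genes whose levels followed the members most closely were looked up over the 6 libraries. Among 9281 other genes with a mean log2 CPM of at least 3, the highest Pearson correlations with the members' mean log2 CPM were 0.998 for Magoh and Rpl36a, 0.997 for Mapk1ip1, and 0.995 for Cdc37 and Deb1. Magoh, of the exon junction complex, was at 69.0, 36.6 and 30.6 CPM in knockouts, against 28.4, 25.5 and 24.8 CPM in controls. Rpl36a, a cytosolic ribosomal protein, was at 459, 165 and 137 CPM in knockouts, against 125, 106 and 102 CPM in controls. Both were highest in knockout 1, as most members were, and the 6 points share that library. Atf4, the stress-response factor of the series title, was at 542, 388 and 368 CPM in knockouts, against 194, 221 and 108 CPM in controls (adjusted p = 0.0585, edgeR). The lowest knockout lay above the highest control, and its adjusted p ran from 7.43e-04 (DESeq2) to 0.524 (with the secretory level as a covariate) over the alternatives.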

How the data were processed

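Per the labels' protocols, RNA from frozen whole prostates was purified with Trizol and a kit, polyadenylated RNA went into directional libraries, and single-end reads came from a NextSeq instrument. STAR, DESeq2 and mm10 are listed, without versions or roles, per the submitters' processing notes. For the counting program, its annotation and the use of strand, details were not given in the sources used here. The authors deposited whole-number read counts per gene symbol, with no normalization. All 6 columns matched a sample title. The genotype label set the group, and replicate numbers only name libraries.

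Counts were tested with edgeR 4.0.16 in R 4.3.3 (expression filter with a minimum count of 10, TMM factors, quasi-likelihood F test of 3 against 3 libraries, no covariate). Benjamini-Hochberg adjustment ran over all 13762 genes tested, with a threshold of 0.05. A standard error is the log2 fold change over the square root of F. Alternatives used other scalings, filters and thresholds, DESeq2 1.42.0, limma-voom (limma 3.58.1), libraries left out, and the log2 summed CPM of Sbp, Sbpl and Spink1 as a covariate. The fit was tested on simulated data. GENCODE M21 (GRCm38, which is mm10) gave positions and lengths, with 1 transcript a gene and all 77 members matched. A chi-square per gene of 52.1 to 957.9 over pairs of libraries showed no library deposited more than once. The labels name no molecular identifiers, and the precision of a level is limited by 3 libraries a group.

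The members and lists were chosen with earlier results of these data known. The naming rule took the 8 highest and 8 lowest log2 fold changes, the 8 smallest p, the 3 highest and 3 lowest levels per length, up to 3 genes a list by smallest p, Sqstm1, Atf4 and the 5 genes most alike. Any other gene was named after its values were seen.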

Additional observations from a re-analysis of the deposited data

How the results depend on the processing

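The count of 0 members past the threshold held with 3 other scalings and a TMM factor computed without the 50 most abundant genes, with both other count filters, in limma-voom, at an adjusted p under 0.01, with each library left out, without control 3 and knockout 1 together, and with the covariate. It was 10 in DESeq2 (all higher) and 4 at an adjusted p under 0.1 (all higher, where 1.42% of all genes were). The count over all genes was 1618 in DESeq2, 1229 without control 3 and knockout 1, 0 with the secretory covariate, 246 at an adjusted p under 0.01 and 1190 at one under 0.1. With a single library left out it ran from 255 to 551: 446 without control 1, 453 without knockout 1, 255 without knockout 2 and 282 without knockout 3. The median log2 fold change of the members was 0.15 to 0.58 with a library left out, the lowest without knockout 1, and 0.16 without control 3 and knockout 1 together. With the covariate it was 1.87, but the covariate separates the groups completely, so that fit holds little information on the genotype. The cause of these moves was not tested. With library size alone as the scaling the median of all genes moved to -0.10 and that of the members to 0.30, with 68 of 77 positive, while 73 of 77 still lay above the median of all genes. For 48 named genes under 16 alternatives, 722 values kept their direction and side of the threshold, 19 passed it where the value in the text did not (15 of them in DESeq2), and 27 changed sign without passing it. No paired analysis was possible because the labels give the groups no shared replicate numbers.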
